A study of Homo sapiens with 4 samples.

Results

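The S100A genes encode small calcium-binding proteins, and 8 of them (S100A2, S100A4, S100A6, S100A10, S100A11, S100A13, S100A14 and S100A16) were followed in HCCLM3, a human hepatoma cell line. They were chosen by symbol, out of 13036 genes in the files, and 7 of the 8 had listed transcripts. S100A14 had none, which by the rule of choice counts as lower than any listed transcript, the lowest of which reached 0.504 FPKM in its highest library, and S100A14 was not analysed here. FPKM counts the fragments of a transcript per unit of its length and per total mapped, so levels of different genes can be compared, and a gene's value is the sum over its listed transcripts. All cells carried a lentiviral short hairpin RNA: a control hairpin in the 2 shCtrl libraries, and a stably expressed hairpin against KIAA1429, of 1 sequence, in the 2 shKIAA1429 libraries. KIAA1429 (now VIRMA) belongs to the complex that places N6-methyladenosine (m6A) on RNA, and the libraries were made to find genes downstream of it. Nothing in the labels says that the replicates were separate cultures, so p-values measure the spread between these libraries, which may be technical.

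An S100 protein is a dimer in which each chain holds a pair of EF-hands, the helix-loop-helix motif that grips a calcium ion. The loop nearer the C-terminus usually has the classical form, and calcium bound there moves a helix away and uncovers a surface that takes hold of a partner protein. The proteins have no enzyme activity of their own and act through partners such as annexins and non-muscle myosin. Most of the genes lie in a cluster on the long arm of chromosome 1, and in epithelial tumours, liver tumours among them, several are studied for their links with motility and invasion.

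The genes were compared first by the feature that names them. The coding bases of the C-terminal EF-hand loop, 36 bases for 12 residues, are printed 5′ to 3′ from the GENCODE 44 transcripts on GRCh37. Capitals mark the codons of loop residues 1, 3, 5 and 12, whose side chains contact calcium in the classical loop. They are shown because the loop separates S100A10 from the other members with values, and S100A14, which had none, is shown for comparison:
S100A11: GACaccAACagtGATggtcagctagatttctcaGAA
S100A6: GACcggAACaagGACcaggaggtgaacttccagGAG
S100A10: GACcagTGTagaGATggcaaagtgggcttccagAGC
S100A16: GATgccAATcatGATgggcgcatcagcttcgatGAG
S100A13: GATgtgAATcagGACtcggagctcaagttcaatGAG
S100A2: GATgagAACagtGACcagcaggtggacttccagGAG
S100A4: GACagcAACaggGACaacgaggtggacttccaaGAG
S100A14: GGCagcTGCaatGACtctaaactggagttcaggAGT

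All of these lie on the minus strand of chromosome 1 and each within 1 exon: S100A10 at chr1:151955720-151955755, S100A11 at chr1:152005219-152005254, S100A6 at chr1:153507229-153507264, S100A4 at chr1:153516319-153516354, S100A2 at chr1:153533987-153534022, S100A16 at chr1:153580088-153580123, S100A14 at chr1:153587427-153587462 and S100A13 at chr1:153591443-153591478. In 6 of the 7 genes with values the capitals code for 3 acidic residues and an asparagine, at loop residue 3. In S100A10 they code for only 2 acidic residues, and the search for the classical loop (an aspartate at residue 1, aspartate, asparagine or serine at residues 3 and 5, and a glutamate at residue 12) found none in its protein. In S100A14 they code for 1 acidic residue. S100A10 is known as the family member that has lost calcium binding and is held permanently in the active shape. The encoded proteins ran from 90 to 105 residues. Over the 21 pairs, identity of the aligned residues ranged from 26.9% to 60.8%, with a median of 34.9%. S100A2 and S100A4 were the most alike pair, at 60.8%, and S100A4 and S100A6 shared 51.1%.

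The study as a whole sets limits on what follows. The read depth of the libraries is unknown, because the values were deposited as FPKM, so no counting error could be given. In the library check, VIRMA was at 9.37 and 14.1 FPKM in shCtrl, against 6.90 and 8.52 FPKM in shKIAA1429 (log2 fold change -0.53, SE 0.24; limma adjusted p-value 0.917). Across all 11657 genes tested, 0 (0%) passed an adjusted p-value under 0.05 with an absolute log2 fold change over 1, and 656 (5.63%) had an unadjusted p under 0.05. These counts are for limma on FPKM. The study did report differentially expressed genes between control and stable knockdown cells, with DESeq on read counts. Of 9 hepatocyte markers only SERPINA1 was listed, at 3.34 to 5.63 FPKM, and ALB, AFP and HNF4A were without a listed transcript. The keratins KRT8, KRT18 and KRT19, of the 5 epithelial markers, summed to 2440 to 2664 FPKM, while EPCAM and CDH1 were without one. None of the 3 squamous epithelial and none of the 3 endothelial markers was listed. Of the blood markers, CD14 and CD68 were listed and summed to 46.7 to 56.3 FPKM, and PTPRC and CD3E were not. The 5 fibroblast markers summed to 1037 and 1101 FPKM in shCtrl and to 1299 and 1268 FPKM in shKIAA1429, nearly all of it VIM, while LUM was at 7.92 and 7.04 FPKM against 2.73 and 2.88 FPKM. The part of these differences in the values of the S100A genes was not tested.

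In GRCh37 the 7 genes lie on the minus strand of chromosome 1. S100A10 (ENSG00000197747.8_2) spans 151955391 to 151966866 and S100A11 (ENSG00000163191.5_2) 152004982 to 152020383. The other 5 follow farther along: S100A6 (ENSG00000197956.9_2) from 153507075 to 153508720, S100A4 (ENSG00000196154.11_3) from 153516089 to 153518361 and S100A2 (ENSG00000196754.10_2) from 153533584 to 153539231. Last come S100A16 (ENSG00000188643.10_2), from 153579362 to 153585621, and S100A13 (ENSG00000189171.14_3), from 153591263 to 153603836.

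The 7 genes differed widely in abundance. S100A11 and S100A6 stood with the most abundant messages of the cell, S100A10, S100A16 and S100A13 followed, and S100A2 and S100A4 were low. S100A11, which binds annexin A1 and takes part in membrane repair and growth control, had a mean over the 4 libraries of 646 FPKM and ranked 36 among the 13036 genes. S100A6 (calcyclin), which binds the ubiquitin ligase partner CACYBP and several annexins, had a mean of 607 FPKM and ranked 38. Their ranges overlapped, from 588 to 737 FPKM and from 562 to 708 FPKM, while within each library S100A11 was the higher of the pair, by 1.02-fold to 1.11-fold. S100A10 (p11), the light chain of the annexin A2 tetramer, was next at 279 FPKM and ranked 142. S100A16, a broadly expressed member, had a mean of 109 FPKM and ranked 426, and S100A13, a carrier in the non-classical export of FGF1, had a mean of 56.0 FPKM and ranked 937.

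Each step from S100A6 down to S100A2 was free of overlap between the libraries. The lowest S100A6 value, 562 FPKM, lay above the highest S100A10 value, 316 FPKM. The lowest S100A10 value, 232 FPKM, lay above the highest of S100A16, 114 FPKM, whose lowest, 100.4 FPKM, lay above the highest of S100A13, 63.4 FPKM. The widest step was the one from S100A13 to S100A2, where the means differed 13.3-fold. S100A2, a mainly nuclear member, had a mean of 4.21 FPKM, and S100A4 (metastasin), which binds the heavy chain of non-muscle myosin and is known for its link with metastasis, had a mean of 4.0 FPKM. Their ranges overlapped, and 38.4% and 37.1% of listed genes had a lower mean. The order of levels was not that of the chromosome, since S100A4 and S100A2 lie between S100A6 and S100A16.

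**Figure D1:**
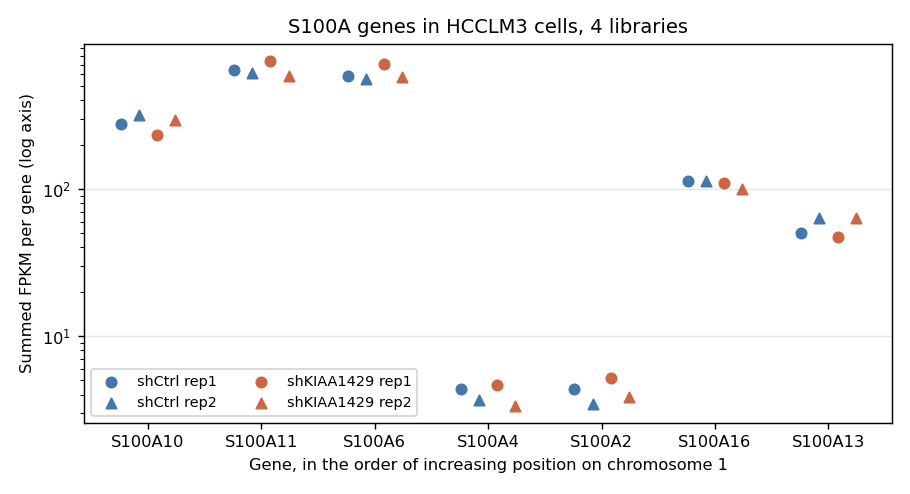
Summed FPKM per gene (log axis) of the 7 S100A genes in order of position on chromosome 1, with 1 point per library, colour for the group and shape for the replicate number. S100A11 and S100A6 sit between 562 and 737 FPKM and S100A4 and S100A2 between 3.37 and 5.17 FPKM, and the colours overlap in every gene except S100A16.

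Of all FPKM listed in a library, the 7 genes together took 0.452% and 0.447% in the shCtrl pair, beside 0.473% and 0.426% in the shKIAA1429 pair. As FPKM, this was 1674 ± 0.245 (SD, n = 2) in shCtrl and 1736 ± 152 (SD, n = 2) in shKIAA1429. The shCtrl libraries were nearly identical in this sum, and the shKIAA1429 libraries lay on either side of them, at 1844 and 1629. S100A11 and S100A6 made up 37.5% and 34.2% of the family sum in shCtrl and 38.2% and 37% in shKIAA1429. Given as shCtrl and then shKIAA1429, S100A10 made up 17.6% and 15.1%, S100A16 6.79% and 6.07%, and S100A13 3.39% and 3.18%, while S100A2 (0.234% and 0.260%) and S100A4 (0.240% and 0.230%) added little.

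To see whether the genes differed after KIAA1429 knockdown, shKIAA1429 was compared with shCtrl by limma on log2(FPKM + 1), a scale that understates the change of low genes. Of the 7 genes, 0 passed both thresholds and 0 reached an unadjusted p under 0.05, beside 0% and 5.63% of all genes tested. The log2 fold change was above 0 in 3 genes and below 0 in 4. Its median was -0.014, beside -0.0083 for all genes tested, and the median of its absolute value was 0.11, beside 0.14. An exact permutation test of 2 libraries against 2 cannot give a p below 0.333. The adjusted p-values by limma lay between 0.973 and 0.9988. In bulk RNA, fewer cells with a message and less of it per cell cannot be told apart.

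S100A16 was the 1 gene of the 7 whose groups did not overlap, an arrangement found in 33.6% of all genes tested. It was at 114 and 113 FPKM in shCtrl, against 110.3 and 100.4 FPKM in shKIAA1429. The shCtrl values nearly coincided, and both shKIAA1429 values lay below them. The log2 fold change was -0.11 (SE 0.12; 95% interval -0.41 to 0.19), with a limma adjusted p-value of 0.987, so it did not exceed the spread estimated by the fit. By exact permutation (two-sided), p was 0.333. Without shKIAA1429 replicate 1 the log2 fold change was -0.18, and it was -0.042 without shKIAA1429 replicate 2.

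S100A10 had the largest absolute log2 fold change of the 7 on the scale of FPKM + 1, with values as deposited. With a pseudocount of 0.1 that of S100A2 was larger, at 0.19, and with the most abundant transcript only those of S100A4 (-0.27) and S100A6 (0.22) were. With upper quartile scaling S100A6 (0.177) and S100A2 (0.175) were ahead of S100A10 (-0.158). Leaving out shCtrl replicate 1, shCtrl replicate 2 or shKIAA1429 replicate 1 also put another member first. The S100A10 values were 274 and 316 FPKM in shCtrl against 232 and 292 FPKM in shKIAA1429, so the groups overlapped. The log2 fold change was -0.18 (SE 0.16; 95% interval -0.59 to 0.23) and the adjusted p-value 0.978 by limma. Of all genes tested, 40.7% had an absolute log2 fold change at least as large. For S100A10 it was -0.0086 without shKIAA1429 replicate 1, -0.34 without shKIAA1429 replicate 2, -0.28 without shCtrl replicate 1 and -0.074 without shCtrl replicate 2.

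S100A6 was at 583 and 562 FPKM in shCtrl, against 708 and 577 FPKM in shKIAA1429. Replicate 1 of shKIAA1429 stood above the other libraries, which lay within 562 to 583 FPKM. That library also had the highest mitochondrial share of FPKM (10.6%, against 9.29% to 9.44%), the highest FPKM sum and the most transcripts at 0 (1492, against 810 to 1277), whose part in these values was not tested. The log2 fold change was 0.16 (SE 0.13; 95% interval -0.18 to 0.49), and it was 0.011 without shKIAA1429 replicate 1. S100A11 had the same arrangement, at 645 and 613 FPKM in shCtrl, against 737 and 588 FPKM in shKIAA1429. Its log2 fold change was 0.067 (SE 0.14; 95% interval -0.29 to 0.42), and -0.096 without shKIAA1429 replicate 1. In shCtrl too, replicate 1 was the higher library for S100A6 and for S100A11.

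The library with the highest S100A6 and S100A11 thus had the lowest S100A10. Within a library, the ratio of S100A6 to S100A10 was 2.13 and 1.78 in shCtrl and 3.05 and 1.97 in shKIAA1429. The ratio of S100A11 to S100A6 moved far less, at 1.11 and 1.09 in shCtrl and 1.04 and 1.02 in shKIAA1429. These ratios do not depend on how a library was scaled. Both shKIAA1429 ratios of S100A11 to S100A6 were below both shCtrl ratios, and the ratio of S100A6 to S100A10 overlapped between the groups. Of all genes tested, 33.6% had groups that did not overlap, and the share among ratios of genes was not counted. By replicate number the ratio of S100A6 to S100A10 did not overlap, being higher in both replicates 1 than in both replicates 2. So was the ratio of S100A11 to S100A10, at 2.35 and 3.18 in the replicates 1 against 1.94 and 2.01 in the replicates 2.

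S100A13 was at 50.4 and 63.2 FPKM in shCtrl, against 47.1 and 63.4 FPKM in shKIAA1429. In either group, replicate 2 was the higher library, and both replicates 2 lay above both replicates 1. The replicate numbers also separated S100A10, in the same direction, and S100A11, S100A6, S100A2 and S100A4, in the opposite direction, but not S100A16. The share of all genes separated in this way was not counted. For S100A13 the log2 fold change was -0.046 (SE 0.21; 95% interval -0.58 to 0.49), the widest interval among the members with more than 10 FPKM. The low members varied as much in log2 terms. S100A2 was at 4.36 and 3.47 FPKM against 5.17 and 3.85 FPKM, a log2 fold change of 0.16 (SE 0.20; 95% interval -0.36 to 0.68). S100A4 was at 4.35 and 3.67 FPKM against 4.61 and 3.37 FPKM. Its log2 fold change was -0.014 (SE 0.20; 95% interval -0.52 to 0.49) as deposited and 0.00019 with upper quartile scaling.

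Over the 7 genes the 95% intervals together ran from -0.59 to 0.68, which on the scale of FPKM + 1 is from 0.666-fold to 1.60-fold. All of them therefore lay within the log2 fold change of 1 used as the threshold. They do not show that the genes were alike in the groups.

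**Figure D2:**
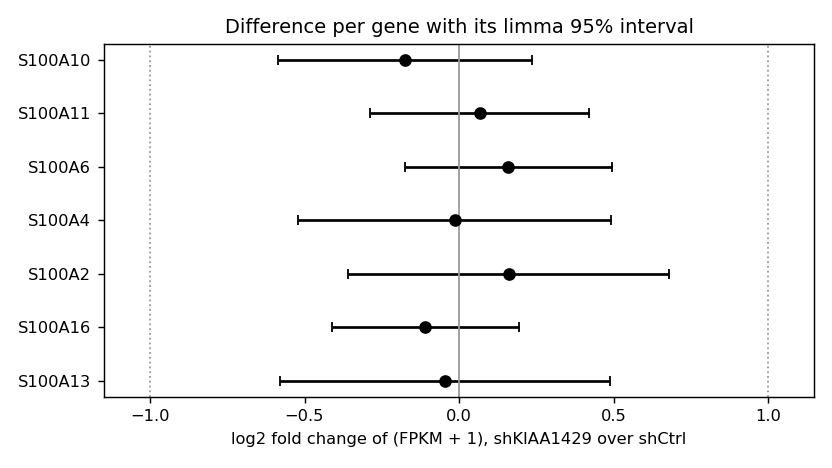
Log2 fold change of FPKM + 1, shKIAA1429 over shCtrl, for each of the 7 S100A genes (points) with the 95% interval from limma (bars), and dotted lines at the threshold of 1 in either direction. Every interval includes 0 and stays inside the dotted lines, the outermost bounds being -0.59 for S100A10 and 0.68 for S100A2.

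The summed values were next taken apart by transcript. The members had 25 listed transcripts, of which 19 reached 1 FPKM in at least 2 libraries and were tested among 24996 transcripts. Of these 19, 0 passed both thresholds and 0 reached an unadjusted p under 0.05 by limma, beside 0% and 6.28% of all transcripts tested. The smallest adjusted p-value was 0.957. The groups did not overlap in 6 of the 19, which was 2 higher and 4 lower in shKIAA1429, beside 33.5% of all transcripts tested. How reads were shared among overlapping transcripts is not given in the sources used here, so single transcripts are less certain than their sum.

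S100A13 was made of different transcripts in the replicates of each group. S100A13-202 was at 22.3 FPKM in shCtrl replicate 1 and 19.9 FPKM in shKIAA1429 replicate 1. It was at 1.31 and 1.27 FPKM in the replicates 2. S100A13-205 had the opposite pattern, at 0.657 and 0.285 FPKM in the replicates 1 and at 13.5 and 13.2 FPKM in the replicates 2 of shCtrl and shKIAA1429. The main transcript, S100A13-203, was at 26.1 and 25.9 FPKM in the replicates 1 and at 46.0 and 46.9 FPKM in the replicates 2. The minor S100A13-206 was at 1.35 and 0.972 FPKM in the replicates 1 and at 2.43 and 2.0 FPKM in the replicates 2. Libraries with the same replicate number thus resembled each other more than libraries of the same group in all of these transcripts. Between the groups the log2 fold changes were 0.0085 (SE 0.44) for S100A13-203, -0.092 (SE 1.69) for S100A13-202 and -0.19 (SE 1.71) for S100A13-205. With SEs this wide, the fit does not show that the groups were alike in S100A13-202 or S100A13-205.

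S100A13-202 took 44.3% and 42.4% of the S100A13 FPKM in the replicates 1 and 2.1% and 2.0% in the replicates 2. S100A13-202 (chr1:153591280-153599524) and S100A13-203 (chr1:153591280-153599744) have 3 exons each in GENCODE 44, share 449 exonic bases and have the same coding sequence. They part in the first exon, which is noncoding in both, with 98 bases in S100A13-202 and 130 in S100A13-203, and the start of S100A13-203 lies 220 bases upstream. S100A13-205 was listed from 153591263 to 153600724, other ends than its GENCODE 44 model has, so its exons are not described. Part of the S100A13 locus is shared with other genes: 235 of 2216 exonic bases lie in exons of S100A1, on the opposite strand, which had a mean of 0.907 FPKM, and 536 in exons of ENSG00000271853, on the same strand and without a listed transcript. The labels do not say whether a replicate number marks a common batch, and the part of a batch in this pattern was not tested.

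**Figure D3:**
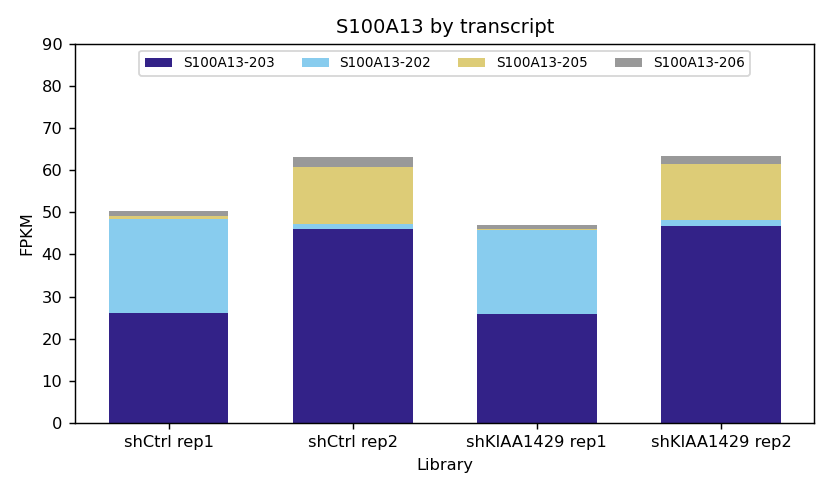
FPKM of the 4 listed S100A13 transcripts, stacked, in each library. S100A13-202 fills 44.3% and 42.4% of the bars of the replicates 1 and 2.1% and 2.0% of those of the replicates 2, where S100A13-205 is at 13.5 and 13.2 FPKM.

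S100A6 had 4 tested transcripts with a clear order. S100A6-201 carried 83.7% of the mean gene value, at 472 and 465 FPKM in shCtrl against 594 and 502 FPKM in shKIAA1429. Both shKIAA1429 values were higher, with a log2 fold change of 0.22 (SE 0.11; limma adjusted p-value 0.957). S100A6-205, with 270 coding bases in GENCODE 44 like S100A6-201, was at 81.9 and 72.8 FPKM against 81.1 and 60.9 FPKM. S100A6-203, with a shorter coding sequence of 255 bases, was at 24.6 and 20.6 FPKM against 28.9 and 10.3 FPKM. S100A6-202 was between 3.19 and 4.15 FPKM in all libraries. The groups overlapped in the last 3.

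In S100A16 the groups were apart in the main transcript and in a pair of minor ones. S100A16-204 carried 66.2% of the mean gene value, at 73.4 and 74.2 FPKM in shCtrl against 71.9 and 70.1 FPKM in shKIAA1429, or -0.055 as a log2 fold change (SE 0.10). S100A16-205, a transcript without a coding sequence, was at 8.57 and 6.87 FPKM against 6.11 and 6.75 FPKM. S100A16-201 was at 1.69 and 1.76 FPKM against 1.56 and 1.38 FPKM. S100A16-203, at 26.7 and 23.9 FPKM against 26.3 and 19.1 FPKM, and S100A16-202, at 3.49 and 6.50 FPKM against 4.39 and 3.11 FPKM, overlapped. By replicate number, S100A16-203 was higher in both replicates 1 than in both replicates 2. No S100A16 transcript reached an unadjusted p under 0.05.

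S100A11 and S100A10 each rested on a single transcript. S100A11-201 carried 99.5% of the S100A11 value, at 584 to 734 FPKM. S100A11-202, a transcript without a coding sequence, was at 3.24 and 1.90 FPKM in shCtrl against 3.11 and 4.16 FPKM in shKIAA1429. S100A10-202 carried 98.9% of the S100A10 value, at 229 to 311 FPKM. S100A10-203 was at 1.42 and 1.97 FPKM against 1.88 and 0.909 FPKM. Like their genes, S100A11-201 and S100A10-202 separated by replicate number.

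Of the 6 transcripts below the filter, which were not tested, 4 had groups that did not overlap, beside 33.5% of the transcripts tested. That share is over transcripts that passed the filter, and the share among those below it was not counted. S100A10-201 was at 0.846 and 2.81 FPKM in shCtrl, against 0.0859 and 0.150 FPKM in shKIAA1429. S100A10-204 went the other way, at 0.425 and 0.374 FPKM against 0.453 and 0.595 FPKM. S100A2-205 was at 0.762 and 0.552 FPKM against 0.119 and 0.229 FPKM. S100A4-204 was at 0.334 and 0.172 FPKM against 0.583 and 0.798 FPKM. Its main counterpart S100A4-203 was lower in shKIAA1429, at 2.96 and 2.17 FPKM beside 3.49 and 3.07 FPKM in shCtrl, with a log2 fold change of -0.27 (SE 0.22; limma adjusted p-value 0.973). S100A4-203 made up 80.2% and 83.6% of the S100A4 value in shCtrl and 64.2% and 64.3% in shKIAA1429. These shares were not tested. The largest part of the rest was S100A4-206 in shKIAA1429 replicate 1 (23.2%, at 1.07 FPKM) and S100A4-204 in shKIAA1429 replicate 2 (23.7%, at 0.798 FPKM). S100A2-202, the main S100A2 transcript, was at 2.80 and 2.79 FPKM in shCtrl, against 3.17 and 3.34 FPKM in shKIAA1429, higher in both, with a log2 fold change of 0.16 (SE 0.18).

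**Figure D4:**
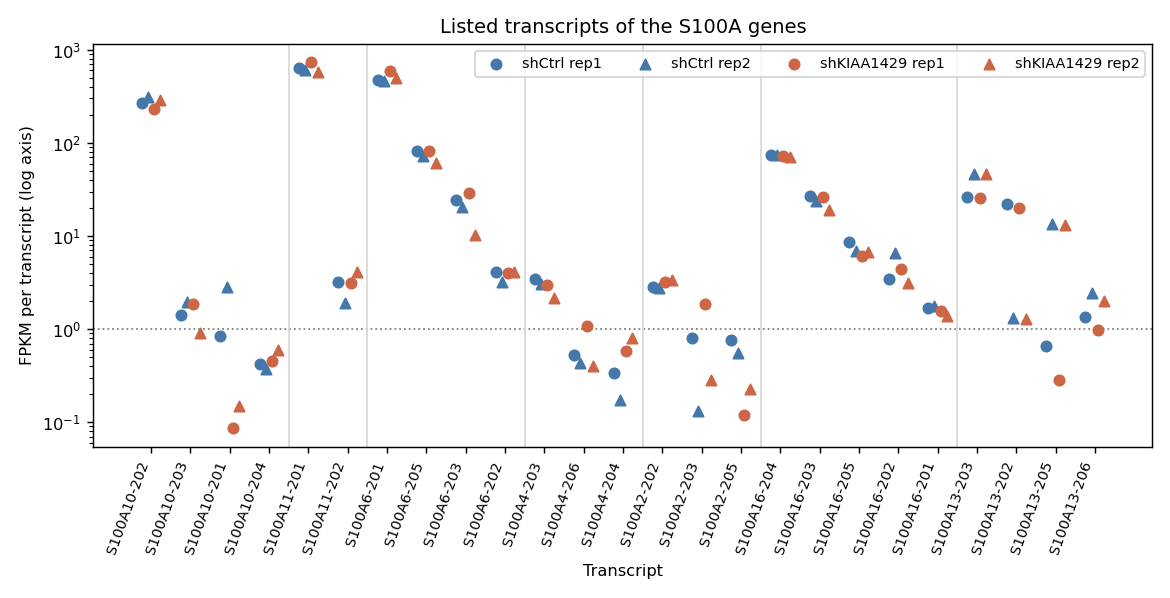
FPKM (log axis) of the 25 listed transcripts of the 7 S100A genes, with 1 point per library, colour for the group, shape for the replicate number, and a dotted line at 1 FPKM. For S100A13-203, S100A13-202 and S100A13-205 the points separate by shape, that is by replicate number, and not by colour.

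The partners of the S100A proteins were read from the same fit. Of 12 annexins, 7 were tested, and 0 passed both thresholds and 0 reached an unadjusted p under 0.05, beside 0% and 5.63% of all genes tested, with a median log2 fold change of 0.088. ANXA2, the calcium-binding subunit that pairs with S100A10 at the plasma membrane, was at 741 and 632 FPKM in shCtrl against 726 and 697 FPKM in shKIAA1429. In every library ANXA2 exceeded S100A10, by 2.70-fold and 2.0-fold in shCtrl and by 3.13-fold and 2.38-fold in shKIAA1429. ANXA1, a partner of S100A11, was at 339 and 310.5 FPKM in shCtrl, against 280.0 and 273 FPKM in shKIAA1429. Both shKIAA1429 values lay below the shCtrl values, with a log2 fold change of -0.23 (SE 0.10; limma adjusted p-value 0.917). The groups were apart in 3 annexins that were higher and 1 that was lower, ANXA1, beside 33.6% of all genes. The ratio of ANXA1 to S100A11 was 0.525 and 0.507 in shCtrl and 0.380 and 0.464 in shKIAA1429.

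Of 20 binding partners and receptors, 17 were tested, and 0 passed both thresholds in either direction. The median log2 fold change was 0.056, and 3 had an unadjusted p under 0.05, beside 5.63% of all genes. MYH9, the non-muscle myosin heavy chain that S100A4 binds, was at 361 and 338 FPKM in shCtrl against 448 and 415 FPKM in shKIAA1429. Its log2 fold change was 0.30 (SE 0.10) and the adjusted p-value 0.872 by limma. The related heavy chain gene MYH10 was at 8.18 and 8.97 FPKM against 5.16 and 6.43 FPKM, a log2 fold change of -0.50 (SE 0.17). CD44, a cell-surface receptor for hyaluronan, was at 159 and 177 FPKM against 204 and 214 FPKM, a log2 fold change of 0.31 (SE 0.11). In these 3 genes, named for their small unadjusted p, the groups did not overlap. Of the 17 partners tested, the groups were apart in 6 that were higher and 3 that were lower in shKIAA1429, beside 33.6% of all genes in either direction, and no adjusted p-value of the list was below 0.871 by limma.

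Named for their roles after their values were seen, CACYBP, a partner of S100A6, and FGF1, a cargo of S100A13, were at lower levels. CACYBP was at 14.3 and 18.5 FPKM in shCtrl against 11.4 and 18.3 FPKM in shKIAA1429. FGF1 was at 5.59 and 3.83 FPKM against 3.71 and 3.45 FPKM. The groups did not overlap in FGF1, as in 33.6% of all genes tested, and the lower of the limma adjusted p-values was 0.960.

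Few other S100 genes were found. Of 12 in the list, 3 had listed transcripts and 1, S100A3, was tested. S100A3, which lies between S100A4 and S100A2, was at 31.2 and 30.8 FPKM in shCtrl, against 32.8 and 31.3 FPKM in shKIAA1429. S100A3 was thus higher in each library than either of its neighbours, with a log2 fold change of 0.047 (SE 0.13). S100A1 was between 0.678 and 1.20 FPKM and S100Z between 0.0684 and 0.691 FPKM.

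Among 24 EF-hand genes outside the family, 0 passed both thresholds and 1 reached an unadjusted p under 0.05, beside 0% and 5.63% of all genes tested, with a median log2 fold change of 0.054. That gene was NUCB1, a Golgi calcium-binding protein gene, at 31.0 and 43.5 FPKM in shCtrl against 58.7 and 65.3 FPKM in shKIAA1429. Its log2 fold change was 0.74 (SE 0.20) and the adjusted p-value 0.730 by limma. The most abundant of them were MYL6, a myosin light chain gene, at 179 to 228 FPKM, and CAPNS1, the small calpain subunit gene, at 125 to 232 FPKM. Of 16 genes beside the S100 genes on chromosome 1, 13 were tested and 0 passed, with a median of 0.030 that was -0.020 with libraries scaled to equal totals. The most abundant, ILF2, was at 110 and 138 FPKM in shCtrl against 104 and 171 FPKM in shKIAA1429, and JTB was at 36.6 to 40.3 FPKM in all libraries.

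**Figure D5:**
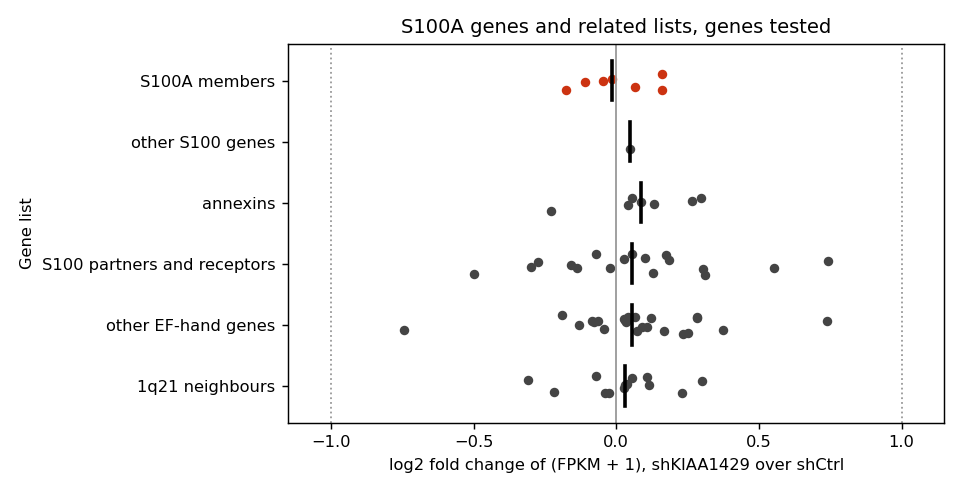
Log2 fold change of FPKM + 1, shKIAA1429 over shCtrl, for the genes tested in each list (points, spread vertically for legibility), with the median as a bar and dotted lines at the threshold of 1. The S100A genes lie between -0.18 and 0.16, and no gene of any list reaches a dotted line.

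The genes whose pattern over the 4 libraries was nearest to the mean pattern of the 7 were sought among 4918 other genes of at least 10 FPKM on average. The mean deviation of the members from their own means, in log2(FPKM + 1), was 0.0016 and -0.0075 in shCtrl and 0.053 and -0.047 in shKIAA1429, a nearly level line. The 5 nearest genes were CRTAP, MADD, AKAP13, LAMTOR4 and GPR137, at root mean square distances from 0.0077 to 0.012, beside a median of 0.15 over all genes compared. CRTAP, for example, was at 25.6 and 25.3 FPKM in shCtrl against 26.2 and 24.5 FPKM in shKIAA1429. Genes that vary little lie near such a line by construction, so nearness to it does not show a pattern shared with the members. The members themselves lay farther from their mean pattern, from 0.059 for S100A16 to 0.22 for S100A13, so the mean hides differences between them.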

How the data were processed

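RNA of 2 shCtrl and 2 shKIAA1429 libraries was analysed, grouped by title. The values are FPKM per transcript, deposited by the authors with hg19 positions, and the tool that made them is not given in the sources used here. The submitters' processing notes name Bowtie2 2.1.0. The read counts that the study compared with DESeq were not used here, and depth per library is unknown. In a pair of files, the gene symbols of 108 transcript rows that had become dates were recovered from the others. FPKM were summed per gene identifier. Genes (or transcripts) with at least 1 FPKM in at least 2 libraries were kept. Groups were compared on log2(FPKM + 1) with limma 3.58.1 in R 4.3.3 (eBayes with trend, two-sided, group only), with Benjamini-Hochberg adjustment over all genes, or all transcripts, tested. Thresholds were those of the study's methods: adjusted p-value under 0.05, and log2 fold change beyond 1 in either direction. The test was checked on simulated data. There the libraries varied independently and the planted differences were larger than those of the members, so smaller differences were not covered. Exons came from GENCODE 44 on GRCh37: all 25 member transcripts matched by identifier and 18 had the same ends. Proteins, translated from its coding sequences, were aligned with Biopython 1.88. Figures were drawn with matplotlib 3.10.9.

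The members and lists were chosen with earlier results of these data known. Named were all members, their transcripts of at least 1 FPKM in at least 2 libraries, the 5 genes nearest to the members' mean pattern, and from each list the 2 most abundant genes and up to 3 with the smallest unadjusted p under 0.05. S100A1, S100Z, marker genes, CACYBP, FGF1 and the transcripts below that filter were named after their values were seen. Alternatives were other scalings, filters, pseudocounts, variance estimates and transcript choices, a replicate block, and leaving out each library.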

Additional observations from a re-analysis of the deposited data

How the results depend on the processing

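No S100A gene passed under any of the 14 alternatives run, with adjusted p-values by limma from 0.492 to 0.9998. S100A6, S100A10 and S100A16 kept their sign in all of them. Leaving out 1 library at a time gave ranges that include 0 for S100A11 (-0.096 to 0.23), S100A4 (-0.20 to 0.17), S100A2 (-0.013 to 0.33) and S100A13 (-0.26 to 0.17). The ranges were -0.34 to -0.0086 for S100A10, 0.011 to 0.31 for S100A6 and -0.18 to -0.042 for S100A16. In these fits 1 group rests on 1 library, assumed to vary like the other. The sign also turned for S100A4 with upper quartile scaling (0.00019) and for S100A13 with the most abundant transcript only (0.0085). The log2 ratio of the summed S100A values was 0.052, and -0.040 to 0.14 with 1 library left out. It was -0.0011 with libraries scaled to equal totals and 0.071 with upper quartile scaling.

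Over all genes, 0 passed in the other alternatives run, while 125 had a log2 fold change over 1 with no test, and 0 to 1 passed with a library left out, the 1 being HIST4H4 without shCtrl replicate 1. With equal totals, and with equal totals without mitochondrial transcripts, the median moved to -0.0038 and 0.0057 for the other S100 genes and to 0.0032 and 0.013 for the binding partners. It moved to 0.0028 for the EF-hand genes with equal totals, and ranged from 0.027 to 0.13 for the annexins with a library left out. For the neighbours on chromosome 1 it was -0.020 and -0.011 with these scalings and -0.019 to 0.073 with a library left out. Over all genes tested the median went from -0.0083 as deposited to -0.059 and -0.050 with the same scalings. Such a scaling divides all values of a library by 1 number, so it moves genes together by construction. The cause of the shifts with a library left out was not tested.

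Groups share replicate numbers, which no label ties to a batch. Deviations of same-numbered libraries correlated at 0.32 over genes but at 0.064 over transcripts (2 pairs). With the replicate block, 0 genes passed, and 1269 in place of 656 had an unadjusted p under 0.05. The block leaves each difference as it was by construction. The SE of S100A13 became 0.081 in place of 0.21, and the limma adjusted p-value of S100A10 0.492. The block changed no call.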
